A study of Homo sapiens with 5 samples.

Results

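The 9 genes described here encode enzymes and regulators of glycogen metabolism: GYS1, GYG1, GBE1 and UGP2 of synthesis, PYGL, PYGB and PHKA2 of breakdown, and PPP1R3B and PPP1R3D, which bring a phosphatase to glycogen. They are 9 of 18417 genes measured on whole-transcript arrays in the human leukemia cell line RS4.11, and were chosen by name, each through a probe that the platform annotation gives to that 1 gene. Every one of the 9 had 1 such probe, so no choice between probes had to be made. Total RNA came from cells given the solvent DMSO (2 arrays, called control) or 10 uM SB216763, a compound that inhibits the kinase GSK-3, for 20 h (3 arrays). The labels name no genetic change made to the line in either group. They do not say whether the arrays of a group are separate cultures. The spread behind the p-values may therefore be technical.

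Glycogen is a branched store of glucose. UDP-glucose, made by UGP2, is added by the self-priming protein glycogenin (GYG1) and then by glycogen synthase (GYS1), and GBE1 adds the branches; phosphorylase (PYGL, PYGB) cuts glucose units off again after activation by phosphorylase kinase, of which PHKA2 is a regulatory subunit. GSK-3 takes its name from this pathway: it phosphorylates glycogen synthase and lowers its activity, an effect on the protein that transcript arrays do not measure.

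RS4.11 carries a rearranged MLL gene and is known as a line of the B cell precursor type. The background of each array was set at the 95th percentile of 341 olfactory receptor genes, which gave 5.98 to 6.19 on the log2 scale. Of 10 measured B cell precursor markers, 3 (CD79B, PAX5 and VPREB3) were above background on all 5 arrays. Another 5, among them CD22, VPREB1 and RAG1, were above it on none. All 9 measured myeloid markers were above it on all arrays. Some of these margins were small, 0.02 to 0.26 for VPREB3, 0.04 to 0.34 for MPO and 0.15 to 0.44 for CD14. The summed log2 level of the myeloid markers was 73.4 to 73.8 on the control arrays and 76.2 to 77.7 on the SB216763 arrays. CSF3R, CD68 and LYZ were called higher, and the other 6 were not called. MPO, ELANE and CD14 had fitted differences of -0.23, -0.05 and -0.003. The sum of the B cell precursor markers was 55.0 to 55.2 and 56.6 to 57.0, with BLNK called higher, and that of the 10 T and NK cell markers 60.0 to 60.4 and 59.9 to 61.1, with NKG7 called higher. The part of these shifts in the values of the glycogen genes was not tested. None of the 4 erythroid, 7 hepatocyte, 7 skeletal muscle and 7 neural markers measured was called by limma, with 0 of them at an unadjusted p under 0.05.

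All 9 glycogen genes were above background on all 5 arrays, where 65.5% of all genes were. The list was chosen with earlier results of these data known, so this count is a description only. Among the 9 genes GYS1 rose with SB216763, 1.26-fold, and the other 8 did not pass the test. The fitted differences, SB216763 minus control on the log2 scale, ran from -0.38 for PPP1R3B to 0.34 for GYS1, with 4 above and 5 below zero and a median of -0.01, beside a median of 0.00 over all genes. The test was limma with Benjamini-Hochberg adjustment over all genes at a threshold of 0.05. Of all genes 13.1% passed it, 7.21% higher and 5.92% lower, so that 1 of 9, or 11.1%, is close to that share. All genes include dim ones, however, which the 9 are not. With dim genes left out, 3083 of 12856 genes passed, and of the 9 genes 1 was called higher and 1 lower. The shares of all genes that follow include dim genes too. At an unadjusted p under 0.05 there were 4 of the 9, GYS1 and GYG1 on the higher side and GBE1 and PPP1R3B on the lower, where 26.5% of all genes were at that level. The groups did not overlap for 6 of the 9, where this held for 41.4% of all genes. The treated arrays were the higher ones for 3 of the 9 (21.6% of all genes) and the lower ones for 3 (19.9% of all genes).

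**Figure D1:**
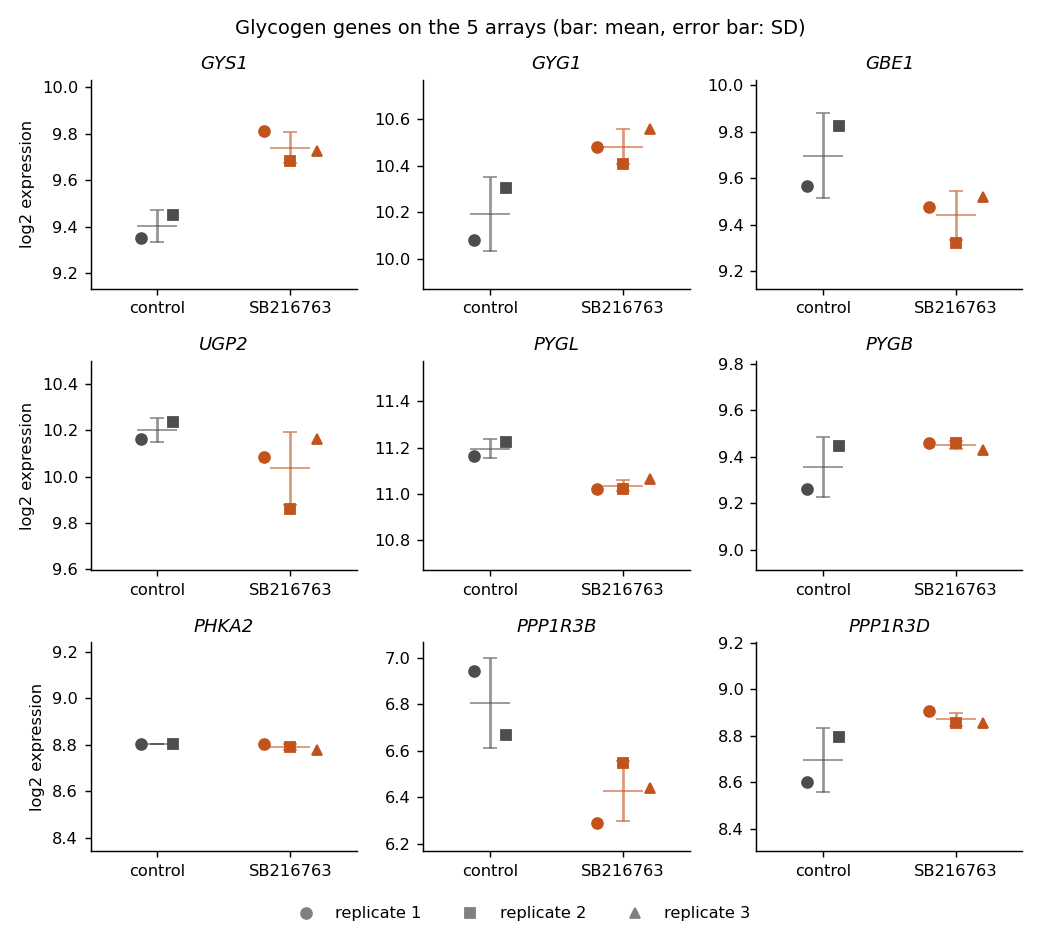
Log2 expression (vertical axes, all of the same span) of the 9 glycogen genes on the 2 control and 3 SB216763 arrays; points are arrays, horizontal bars group means and error bars SD. The groups stand apart for GYS1, GYG1, GBE1, PYGL, PPP1R3B and PPP1R3D and overlap for PYGB, UGP2 and PHKA2.

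GYS1 encodes the synthase isoform of muscle and most other tissues. Its log2 values were 9.35 and 9.45 on the control arrays and 9.81, 9.68 and 9.73 on the SB216763 arrays. All 3 treated arrays lay above both controls, and the gap between the groups was larger than the spread within either. The means were 9.40 ± 0.07 (SD, n = 2) and 9.74 ± 0.07 (SD, n = 3), a difference of 0.34 (SE 0.08, 95% interval 0.15 to 0.53, adjusted p = 0.0359 by limma). With 1 control array left almost no gene passed, 1 of 18417 without control replicate 1 and 0 without control replicate 2, so those settings carry no information on single calls; the adjusted p of GYS1 was then 0.206 and 0.126. The call was also lost without SB216763 replicate 1 (0.155) or SB216763 replicate 3 (0.0805), where 993 and 1606 genes passed. Over 15 other settings 8 did not call it, and the adjusted p ran from 0.00449 to 0.206. The difference of GYS1 itself stayed between 0.29 and 0.40 in all 15, though several of these settings leave it unchanged by construction.

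GYG1, glycogenin, forms the primer on which GYS1 builds. It had 10.08 and 10.30 on the control arrays and 10.48, 10.41 and 10.56 with SB216763. The groups did not overlap, but the controls were 0.22 apart. The means were 10.19 ± 0.16 (SD, n = 2) and 10.48 ± 0.08 (SD, n = 3), and the difference of 0.29 (SE 0.10, 95% interval 0.07 to 0.52) did not pass the adjusted test (adjusted p = 0.0960 by limma). It was 0.18 without control replicate 1 and 0.40 without control replicate 2.

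GBE1, the branching enzyme, had lower values on the treated arrays. Its log2 values were 9.57 and 9.82 on the control arrays and 9.48, 9.32 and 9.52 with SB216763. The highest treated array was just below the lower control, and the controls were as far apart, 0.26, as the groups. That difference was -0.26 (SE 0.11, 95% interval -0.50 to -0.01, adjusted p = 0.173 by limma), and it was -0.13 without control replicate 2 and -0.39 without control replicate 1.

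UGP2 makes UDP-glucose, which also feeds glycosylation. It gave 10.16 and 10.24 on the control arrays and 10.08, 9.86 and 10.16 with SB216763. SB216763 replicate 2 was the low one and replicate 3 matched control replicate 1. The difference was -0.16 (SE 0.11, 95% interval -0.41 to 0.08, adjusted p = 0.390 by limma), and it was -0.08 without SB216763 replicate 2.

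The starts of the 3 genes that build the polymer are shown because they are the single called gene and the 2 whose products work directly on the same chain, with fitted differences of either sign. These are the 250 bases before each start site in RefSeq (build GRCh38.p14), 5′ to 3′. Capitals mark 3 motifs searched on both strands: CACGTG, an E-box bound by MYC and TFEB family factors, CCAAT, bound by NF-Y, and GGGCGG, the GC box bound by SP factors.
GYS1, chr19:48993310-48993559, minus strand: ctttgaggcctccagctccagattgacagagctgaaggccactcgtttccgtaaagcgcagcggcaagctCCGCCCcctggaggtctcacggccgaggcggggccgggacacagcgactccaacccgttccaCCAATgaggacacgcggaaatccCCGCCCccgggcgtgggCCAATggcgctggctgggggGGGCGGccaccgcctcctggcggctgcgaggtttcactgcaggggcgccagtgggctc
GYG1, chr3:148991290-148991539, plus strand: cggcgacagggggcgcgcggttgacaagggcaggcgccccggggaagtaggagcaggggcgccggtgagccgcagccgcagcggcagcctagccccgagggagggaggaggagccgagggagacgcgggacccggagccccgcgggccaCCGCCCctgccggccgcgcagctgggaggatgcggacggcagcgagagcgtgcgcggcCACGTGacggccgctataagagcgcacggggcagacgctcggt
GBE1, chr3:81761646-81761895, minus strand: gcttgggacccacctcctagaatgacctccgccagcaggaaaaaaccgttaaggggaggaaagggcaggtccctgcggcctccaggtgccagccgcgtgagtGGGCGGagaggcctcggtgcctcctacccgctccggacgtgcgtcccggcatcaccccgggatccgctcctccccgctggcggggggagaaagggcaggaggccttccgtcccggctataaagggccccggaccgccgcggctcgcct

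GYS1 held CCAAT at 2 places, starting 118 and 78 bases before the start site, and the GC box at 3, and no pair of motifs overlapped. GYG1 held CACGTG once, 43 bases before its start site, and GBE1 held the GC box alone. Over the 8 glycogen genes whose promoters were used (UGP2 with 2 start sites), CACGTG was found in 2, GYG1 and PPP1R3D, and CCAAT in 2, GYS1 and UGP2, while GGGCGG was found in all 8. Of all 35116 promoters of this length in the table, 6.34% held CACGTG, 32.0% CCAAT and 42.6% GGGCGG. A match describes the letters only, and these motifs were chosen with the gene values known.

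**Figure D2:**
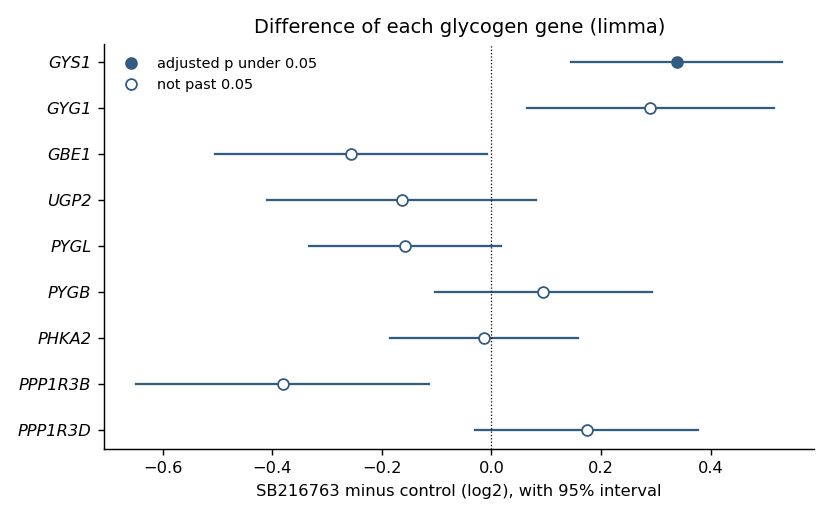
Difference between SB216763 and control (log2, horizontal axis) of each glycogen gene with its 95% interval from the moderated fit; filled points passed an adjusted p of 0.05. GYS1 alone is filled, at 0.34, and the intervals of GYG1, GBE1 and PPP1R3B leave out zero before adjustment.

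Of the breakdown genes, PYGL encodes the liver isoform of phosphorylase, which leukocytes also use. It had 11.17 and 11.22 on the control arrays and 11.02, 11.02 and 11.07 with SB216763. Every treated array was below both controls. The difference was small, -0.16 (SE 0.08, 95% interval -0.33 to 0.02, adjusted p = 0.236 by limma).

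PYGB, the brain isoform, gave 9.26 and 9.45 on the control arrays and 9.46, 9.46 and 9.43 with SB216763. The treated arrays lay at the level of control replicate 2, and the groups overlapped. The difference was 0.09 (SE 0.09, 95% interval -0.10 to 0.29, adjusted p = 0.563 by limma); it was 0.00 without control replicate 1 and 0.19 without control replicate 2.

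PHKA2 encodes the liver-type regulatory alpha subunit of phosphorylase kinase. Its values were 8.80 and 8.80 on the control arrays and 8.80, 8.79 and 8.78 with SB216763. It had the narrowest range of the 9 genes, 0.03 over all arrays, and a difference of -0.01 (SE 0.07, 95% interval -0.18 to 0.16, adjusted p = 0.940 by limma). That interval holds changes from 0.880-fold to 1.12-fold.

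PPP1R3B and PPP1R3D are targeting subunits that carry protein phosphatase 1 to glycogen, where it activates the synthase and switches off phosphorylase. PPP1R3B had 6.94 and 6.67 on the control arrays and 6.29, 6.55 and 6.44 with SB216763. The treated arrays were all below the controls, yet the controls differed by 0.28 and every value was close to background, 0.17 to 0.75 above it. The means were 6.81 ± 0.20 (SD, n = 2) and 6.43 ± 0.13 (SD, n = 3), and the difference of -0.38 (SE 0.11, 95% interval -0.65 to -0.11) had an adjusted p of 0.0717 by limma. Leaving out control replicate 1 gave -0.24, and leaving out control replicate 2 gave -0.52. Of the 15 other settings 4 called it lower, and its adjusted p ran from 0.00747 to 0.405.

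PPP1R3D had 8.60 and 8.79 on the control arrays and 8.90, 8.85 and 8.85 with SB216763. Here the treated arrays were above both controls, which were 0.19 apart. The difference was 0.17 (SE 0.09, 95% interval -0.03 to 0.38, adjusted p = 0.260 by limma), with 0.08 without control replicate 1 and 0.27 without control replicate 2.

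The 2 control arrays themselves differed in one direction over most of the set. Control replicate 2 was above control replicate 1 for 8 of the 9 genes, PPP1R3B being the other. This held for 61.9% of all genes and 67.9% of those above background on all arrays. The gap between the controls was at least as large as the fitted difference for 3 of the 9, GBE1, PYGB and PPP1R3D. The same held for 44.0% of all genes and 36.2% of those above background on all arrays. Among the treated arrays, replicate 2 was the lowest of the 3 for 6 of the 9 genes, counting the tied lowest values of PPP1R3D, and for 37.6% of all genes and 48.1% of those above background on all arrays.

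**Figure D3:**
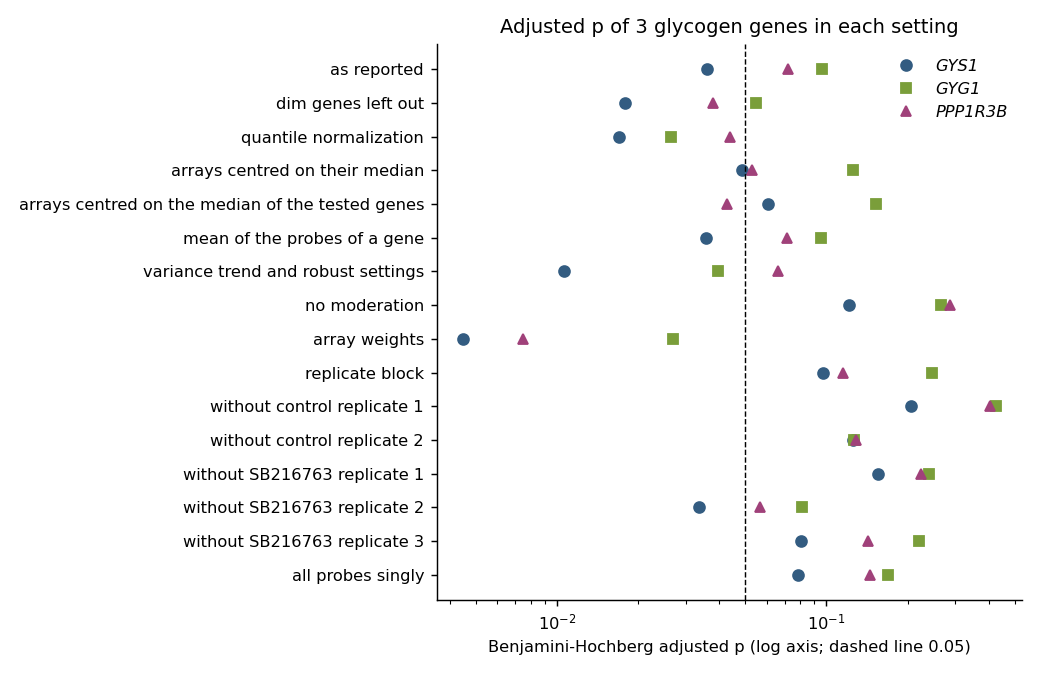
Adjusted p (log axis) of GYS1, GYG1 and PPP1R3B in the reported fit and in each of 15 other settings, with the threshold of 0.05 dashed. GYS1 lies left of the line in 7 of the 15, PPP1R3B in 4 and GYG1 in 3. In the settings without a control array at most 1 of 18417 genes was called.

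The arrays also show which isoform of each glycogen protein gave a signal above background, which alone does not show that the gene is transcribed. Probes are compared here only with background, not with one another. GYS1 was 3.16 to 3.75 log2 units above background, whereas GYS2, the liver synthase, was above it on no array, at -1.84 to -1.34 relative to it. GYG1 was 3.89 to 4.58 above, and GYG2, the second glycogenin, was above background on no array.

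Of the phosphorylases, PYGL stood 4.87 to 5.09 and PYGB 3.07 to 3.45 log2 units above background, and the muscle isoform PYGM was above it on 1 of 5 arrays, by 0.06. Phosphorylase kinase was represented by PHKA2, 2.61 to 2.80 above, its beta subunit PHKB and the catalytic PHKG2. The alpha and gamma subunits typical of muscle, PHKA1 and PHKG1, were above background on no array. Among the phosphatase subunits, PPP1R3D was 2.41 to 2.88 above background and PPP1R3F 0.59 to 1.30, while PPP1R3A of muscle and PPP1R3C were above it on no array. Of the marker lists of these tissues, 2 of 7 hepatocyte genes, 4 of 7 skeletal muscle genes and 2 of 7 neural genes were above background on all arrays, and 5, 3 and 5 on none, among them ALB and CKM. The muscle genes MYOG and ACTA1 were 0.62 to 1.07 and 1.77 to 1.96 above background. Margins like that of PPP1R3F therefore also occur for genes typical of muscle.

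**Figure D4:**
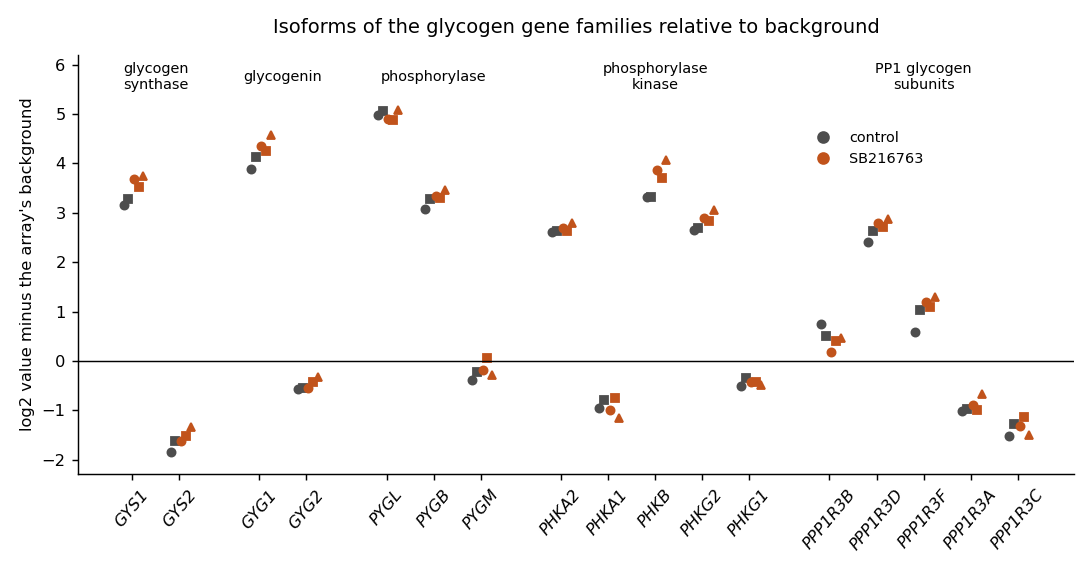
Log2 value minus the background of the same array (vertical axis; the line at 0 is background) for members of 5 glycogen gene families, grey for control and orange for SB216763 arrays. GYS1, GYG1, PYGL, PYGB, PHKA2, PHKB, PHKG2, PPP1R3B, PPP1R3D and PPP1R3F lie above the line on all 5 arrays.

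Among the other genes of glycogen metabolism, 4 of 16 measured rose and 0 fell, against 7.21% higher and 5.92% lower of all genes. The median difference of the 16 was 0.06. Of the 4, NHLRC1 was above background on no array and PGM2L1 on the SB216763 arrays only. GAA, the lysosomal enzyme that degrades glycogen to glucose, had 8.08 and 7.94 on the control arrays and 8.72, 8.55 and 8.69 with SB216763. It rose 1.56-fold, by 0.64 (SE 0.09, adjusted p = 0.00477 by limma). PHKB, the beta subunit that works with PHKA2, had 9.51 and 9.50 against 9.98, 9.85 and 10.05 and rose by 0.45 (SE 0.09, adjusted p = 0.0150 by limma).

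PGM2L1, a glucose bisphosphate synthase, was at background on both control arrays and at least 1.24-fold higher with SB216763. NHLRC1, the ubiquitin ligase malin, also passed as higher, with all 5 arrays below background. The enzymes that interconvert the glucose phosphates, PGM1 and PGM2, differed by -0.08 and -0.07 and did not pass. In the settings with 1 control array, where limma called at most 1 of all genes, 0 of these 16 passed, and 4 and 5 were higher if p is left unadjusted at 0.05. It called 1 higher without SB216763 replicate 1 (GAA) and 2 without SB216763 replicate 3.

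Of 19 measured regulators, kinases and phosphatase subunits that act on glycogen enzymes, 5 rose and 2 fell, with a median difference of 0.07. That is 36.8% called, against 13.1% of all genes. However, 18 of the 19 were above background on all arrays, against 65.5% of all genes. With dim genes left out, 3083 of 12856 genes passed. CSNK2A2, a catalytic subunit of casein kinase 2, which phosphorylates glycogen synthase beside the GSK-3 sites and so prepares them, had 9.97 and 9.89 on the control arrays and 10.63, 10.56 and 10.68 with SB216763. Its rise of 0.69 (SE 0.08, adjusted p = 0.00242 by limma) was 1.61-fold. CSNK2B, the other subunit of casein kinase 2 measured, differed by 0.07 and did not pass, and CSNK2A1 had no value. PRKACB, a catalytic subunit of protein kinase A, rose by 0.55 (SE 0.08), and PRKAG1, a subunit of the energy sensor AMPK, by 0.52 (SE 0.10). PRKACA, also a catalytic subunit of protein kinase A, differed by 0.08 and did not pass, nor did the other AMPK subunits measured. PASK, a nutrient-sensing kinase that can phosphorylate glycogen synthase, fell by 0.45 (SE 0.09).

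GSK3B, one of the inhibitor's targets, rose by 0.34 (SE 0.09, adjusted p = 0.0403 by limma) and GSK3A differed by 0.09 (SE 0.07, adjusted p = 0.540). PPP1CC, a catalytic subunit of protein phosphatase 1, rose by 0.32, and AKT1, a kinase that inhibits GSK-3, fell by 0.29. These 2 were named after their values were seen. The other catalytic subunits of that phosphatase, PPP1CA and PPP1CB, differed by 0.01 and -0.15 and did not pass. AKT2 differed by -0.29, as AKT1 did, but did not pass (adjusted p = 0.0644 by limma). GSK3B was called in 2, PPP1CC in 1 and AKT1 in 3 of 9 other settings. With 1 control array limma called 0 of the 19, as of nearly all genes, with 5 and 7 higher and 2 and 3 lower at an unadjusted p under 0.05. It called 2 higher and 0 lower without SB216763 replicate 1, and 2 higher and 1 lower without SB216763 replicate 3. GSK3B had an adjusted p of 0.0544 with each array centred on its median.

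Of 15 measured genes of glucose entry, transport, phosphorylation and release, 3 fell and 1 rose, against 5.92% lower and 7.21% higher of all genes, with a median difference of -0.08. The fructose carrier SLC2A5 had 9.76 and 9.85 on the control arrays and 8.79, 8.92 and 8.87 with SB216763. It fell 1.93-fold, a difference of -0.95 (SE 0.08, adjusted p = 0.000832 by limma). The glucose carriers SLC2A1 and SLC2A3 fell by 0.92 (SE 0.08) and 0.58 (SE 0.14), and SLC2A6 rose by 0.43 (SE 0.09). SLC2A3 differed by -0.37 without control replicate 1 and by -0.79 without control replicate 2. HK2 and GPI, of the first steps of glucose use, differed by -0.08 and 0.02 and did not pass. With 1 control array limma likewise called 0 of these 15 genes, with 4 and 3 lower and 1 higher in each case at an unadjusted p under 0.05. SLC2A6 and SLC2A3 were not called without SB216763 replicate 1, nor SLC2A3 without SB216763 replicate 2.

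**Figure D5:**
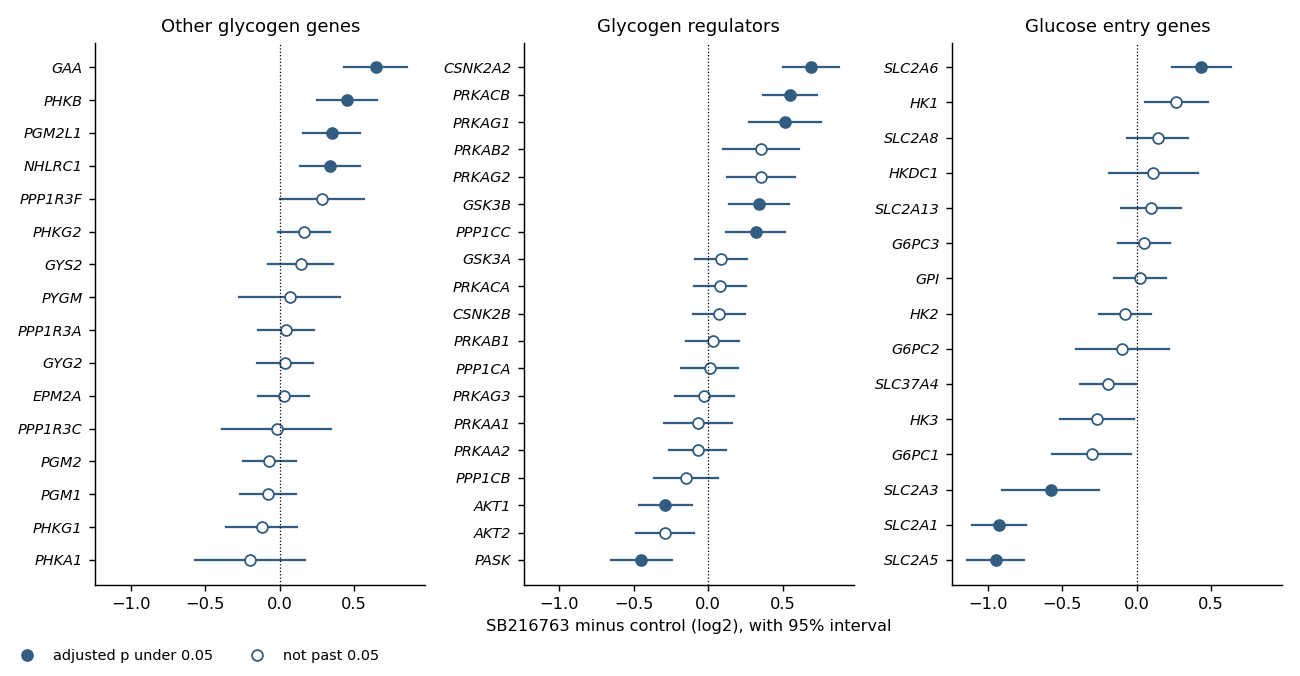
Difference between SB216763 and control (log2, horizontal axis) with 95% intervals for the measured genes of 3 lists around the glycogen pathway; filled points passed an adjusted p of 0.05. The filled points are 4 higher among the other glycogen genes, 5 higher and 2 lower among the regulators, and 1 higher and 3 lower among the glucose entry genes.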

How the data were processed

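The authors deposited 1 table of log2 expression for 33297 probes on 5 arrays; the log2 scale is read from the range of the values. Affymetrix Expression Console is the tool that the submitters' processing notes name. Which version, summarisation and build were used is not given in the sources used here. Values ran from 1.95 to 14.84 and array medians from 6.77 to 6.84, so nothing was normalized further. Pearson r across probes was 0.994 between the control arrays, 0.992 to 0.996 among the SB216763 arrays and 0.989 to 0.991 between groups.

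Probes with exactly 1 gene symbol (19460) were used, the brightest per gene, which left 18417 genes. The comparison used lmFit and eBayes of limma 3.58.1 (R 4.3.3), two-sided; the moderated test had 7.62 degrees of freedom. A fold against a group not above background is a lower bound, with the dim group set at the higher of background and its own value. Figures were made with matplotlib 3.10.9. The procedure was tested on simulated data.

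The 9 genes and all lists were chosen with earlier results of these data known. Beside the 9, GSK3A and GSK3B, the rule named up to 4 called genes with the smallest p per list. Sequences are from RefSeq, GRCh38.p14; that of PPP1R3B was not used here.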

Additional observations from a re-analysis of the deposited data

How the results depend on the processing

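Each of the 9 glycogen genes kept the sign of its difference in all 15 other settings, but some of these settings could not alter it. Averaging probes or testing them singly leaves the difference as it is for genes with 1 probe. Leaving out dim genes, a variance trend with robust settings, and no moderation change only the test. The replicate block gives the same difference as leaving out SB216763 replicate 3. Of the 135 values over these settings, 120 stayed on their side of the threshold, 8 lost a call (GYS1) and 7 gained one (GYG1 and PPP1R3B). The number of the 9 called higher, 1 as reported, was 2 after quantile normalization, with a variance trend and robust settings, and with array weights. These settings called 2874, 3127 and 4720 of all 18417 genes, where 2418 were called as reported. It was 0 without moderation (251 of all genes called), with all probes tested singly (1907 of 33297 probes), and with each array centred on the median of the tested genes (2584), a setting chosen after seeing the data. The number called lower, 0 as reported (2 at an unadjusted p under 0.05), was 1 with dim genes left out, after quantile normalization, with array weights and with that added centring, PPP1R3B each time. With dim genes left out, 3083 of 12856 genes were called. The median of the 9 was -0.049 with arrays centred on their own median and -0.066 with the added centring, where the median of all genes was -0.03 and -0.05.

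With 1 array left out, 0 to 1 of the 9 were higher and 0 lower by limma, with 1 to 3 higher and 1 to 2 lower at an unadjusted p under 0.05. The other glycogen genes called higher then numbered 0 to 3, the regulators 0 to 7 higher and 0 to 2 lower, and the glucose entry genes 0 to 1 higher and 0 to 3 lower. With 1 control array left, that array is assumed to vary like the SB216763 arrays, and limma called 1 and 0 of all genes, so lost calls there say nothing about these genes.

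With the replicate number as a block, 0 of the 9 were called higher, 2 other glycogen genes, and 3 regulators higher and 1 lower. Of all 18417 genes, 1830 were called with this block. The third SB216763 array has no control of its number and drops out of that fit. Same-numbered arrays did not deviate together (correlations -0.05 and -0.10 across genes). With 2 control arrays, this check cannot tell whether they share more than a number. The regulators were 3 higher with either centring and 1 lower after quantile normalization, and the other glycogen genes 2 higher with the added centring.

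Precision is limited by the number of arrays, and for PPP1R3B also by a signal near background.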
